A study of Mus musculus with 2 samples.

Results

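The 10 mouse genes described here encode Toll-like receptors: Tlr1, Tlr2, Tlr4 and Tlr6, whose proteins stand at the cell surface, and Tlr3, Tlr7, Tlr8, Tlr9, Tlr12 and Tlr13, whose proteins act in endosomes. They were taken by name from the 31053 genes of a single-cell RNA sequencing matrix, and all 10 were in it. Their transcripts were read in barcodes that passed a filter of no fewer than 200 genes and no more than 20% mitochondrial transcripts, which kept 5328 of 6272 cell barcodes. A further pair of receptor genes of the same family, Tlr5 and Tlr11, are given with the pathway genes.

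The study sorted cells near the cribriform plate, a sieve-like bone above the nasal cavity, to ask how neuroinflammation alters the lymphatic vessels there. One sample was a pool of cells from 5 mice with experimental autoimmune encephalomyelitis (EAE), an induced autoimmune inflammation of the brain and spinal cord, and the other a pool of cells from 5 healthy mice. All animals were wild-type C57BL/6J females of 10 weeks. The labels used here name neither the agent that induced the disease nor its day or score. Tissue was dissociated mechanically and also took in olfactory bulb and nasal mucosa. The sort gate was podoplanin+ CD31+ CD45- without dead cells. Both samples lie in 1 matrix, where barcodes end in 1 or 2, and no source used here ties an ending to a condition. They are therefore called library 2 and library 1, and EAE was not compared with healthy mice. With 1 library on each side there is no replicate and no test. A difference between them compares these libraries only, and every interval below is a 95% interval that covers counting error and nothing else.

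Library 2 had 1922 kept cells with 20282053 UMIs (molecular tags that count captured transcripts once each), and library 1 had 3406 kept cells with 25766058. Median depth was 9782.5 UMIs per cell in library 2 and 7334 in library 1. The label of lymphatic endothelium did not match the transcripts. The 7 lymphatic markers (Prox1, Lyve1 and others) came to 6.90 CPM (UMIs of a gene per 1000000 UMIs of the cells) in library 2, against 28.3 CPM in library 1. The 7 microglia markers (P2ry12, Tmem119 and others) came to 9177 CPM in library 2, against 17504 CPM in library 1. No fewer than 5 of these 7 were found in 1635 cells (85.1%) in library 2 and 3249 cells (95.4%) in library 1, called microglia-marker cells below. The receptor values below are thus mostly those of cells with microglia transcripts. The libraries shared 8 barcode sequences, and leaving those cells out moved no value past its counting error.

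Toll-like receptors are membrane proteins that recognise microbial molecules and some products of damaged cells. Those at the surface read mainly lipids and lipoproteins of microbial envelopes, whereas those in endosomes read mainly nucleic acids and reach that compartment with the chaperone UNC93B1. On binding a ligand, most of them recruit the adaptor MyD88, which leads to NF-kappaB and to inflammatory cytokine genes, while TLR3 signals through the adaptor TRIF. Microglia, the resident macrophages of the brain, are the brain cells best known for carrying many of these receptors.

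Promoter sequence is shown for the 3 genes on which the later results turn: Tlr2, which held more receptor transcripts than any other member, Tlr3, whose level followed an interferon list within library 2, and Tlr12, which differed most between libraries. Each line gives the 250 bases before the RefSeq start site on the gene's own strand, in mouse build GRCm38.p6. The windows lie at chr3:83841609-83841858 for Tlr2, chr8:45410381-45410630 for Tlr3 and chr4:128618620-128618869 for Tlr12, all on the minus strand. Capitals mark matches to the NF-kappaB consensus of 10 letters on either strand.
Tlr2: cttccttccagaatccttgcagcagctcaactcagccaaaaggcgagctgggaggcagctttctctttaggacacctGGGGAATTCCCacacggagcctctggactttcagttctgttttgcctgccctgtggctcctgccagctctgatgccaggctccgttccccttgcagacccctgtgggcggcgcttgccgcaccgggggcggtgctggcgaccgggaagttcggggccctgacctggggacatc
Tlr3: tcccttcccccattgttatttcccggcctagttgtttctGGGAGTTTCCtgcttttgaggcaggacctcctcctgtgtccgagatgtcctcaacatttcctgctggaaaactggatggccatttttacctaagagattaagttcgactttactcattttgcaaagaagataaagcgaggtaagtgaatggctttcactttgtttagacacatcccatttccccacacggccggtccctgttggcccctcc
Tlr12: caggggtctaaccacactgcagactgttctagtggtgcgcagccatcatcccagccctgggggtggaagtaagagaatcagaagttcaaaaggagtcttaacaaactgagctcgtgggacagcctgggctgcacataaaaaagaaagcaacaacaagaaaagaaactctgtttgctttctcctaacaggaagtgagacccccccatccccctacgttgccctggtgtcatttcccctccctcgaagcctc
The Tlr2 window held 3 overlapping matches, the first 172 bases before the start site, and the Tlr3 window held 1 match, 211 bases before it. The consensus occurs in 3.75% of 27025 mouse promoter windows of this length, and 2 of the 8 receptor genes with a RefSeq window had it. The core of the interferon-stimulated response element, which is GAAA, any 2 bases and GAAA again, was sought on both strands. It was found in 1 of the 2 windows of Tlr6, with 2 overlapping matches, and in 3.04% of all windows. The ETS-type letters GAGGAA were found in 1 of the 2 windows of Tlr1, in those of Tlr8, Tlr9 and Tlr13, and in 23.1% of all windows. A receptor gene counted if any of its windows matched, whereas the background took 1 window per gene, so the shares are not fully alike. The Tlr12 window held none of the 3 motifs. Tlr4 and Tlr7 had no entry in the sequence table. A match of letters is a description of the window and does not show that a factor binds there.

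Tlr2 (ENSMUSG00000027995, chromosome 3), the receptor for bacterial lipoproteins, was the most abundant of the 10 in both libraries. It stood at 296 CPM in library 2 (interval 288 to 303; 5995 UMIs) and at 187 CPM in library 1 (182 to 193; 4825 UMIs). A Tlr2 UMI was found in 76.1% of the cells in library 2, against 56.6% of those in library 1. After each cell was thinned to 1000 UMIs, which removes the difference in depth, the shares were 23.2% in library 2 and 14.5% in library 1. Thinning left out 15 shallower cells of library 2 and 87 of library 1. In 42 barcodes of library 2 with olfactory sensory neuron markers and at most 2 microglia markers, a cell type in which Tlr2 is not known as a marker, 2.38% (1 cell; 0.0603% to 12.6%) had a Tlr2 UMI at a median depth of 10915 UMIs. In cells of that library with microglia markers the share was 81.5% at a median depth of 9992 UMIs. In library 1, 1 of 19 such neuron barcodes had a Tlr2 UMI (5.26%; 0.133% to 26.0%) at a median depth of 9022 UMIs, against 58.9% of the microglia-marker cells at 7392 UMIs.

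The other surface receptors were far less abundant. Tlr4 (ENSMUSG00000039005, chromosome 4), the receptor for bacterial lipopolysaccharide, stood at 41.5 CPM in library 2 (38.7 to 44.4) and 30.1 CPM in library 1 (28.0 to 32.3). Tlr1 (ENSMUSG00000044827, chromosome 5), the partner of TLR2 for lipoproteins with an extra acyl chain, stood at 35.4 CPM in library 2 (32.9 to 38.1) and 10.0 CPM in library 1 (8.83 to 11.3). Tlr6 (ENSMUSG00000051498, chromosome 5), the partner of TLR2 for the other lipoproteins, stood at 12.97 CPM in library 2 (11.4 to 14.6) and 7.80 CPM in library 1 (6.76 to 8.96). Tlr1 and Tlr6 lie on the same chromosome and are near copies of each other in part. Of the 60-base stretches in Tlr1 transcripts, 12.04% also occur in Tlr6, and 10.8% of those in Tlr6 occur in Tlr1, so their UMIs are less certain than those of the other members, no pair of which shared a stretch.

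Among endosomal receptors, Tlr7 (ENSMUSG00000044583, chromosome X), which reads single-stranded RNA, was highest, at 77.9 CPM in library 2 (74.1 to 81.8) and 62.3 CPM in library 1 (59.3 to 65.5). Tlr12 (ENSMUSG00000062545, chromosome 4), known in mice as a receptor for a profilin of Toxoplasma, stood at 51.7 CPM in library 2 (48.6 to 54.9) and 13.3 CPM in library 1 (11.9 to 14.8). Tlr3 (ENSMUSG00000031639, chromosome 8), which reads double-stranded RNA, stood at 46.3 CPM in library 2 (43.4 to 49.4) and 28.7 CPM in library 1 (26.7 to 30.9). Exons of Tlr3 overlap Gm45542 on the other strand, a gene with 5 UMIs in all kept cells. Tlr13 (ENSMUSG00000033777, chromosome X), which reads bacterial ribosomal RNA and is lacking in humans, stood at 43.2 CPM in library 2 (40.4 to 46.2) and 42.9 CPM in library 1 (40.4 to 45.5).

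The remaining receptors for nucleic acids were rare. Tlr9 (ENSMUSG00000045322, chromosome 9), the receptor for unmethylated CpG DNA, had 75 UMIs or 3.70 CPM in library 2 (2.91 to 4.63) and 65 UMIs or 2.52 CPM in library 1. Tlr8 (ENSMUSG00000040522, chromosome X), a relative of Tlr7, had 0 UMIs in 1922 cells of library 2, where 3 counts would make 0.148 CPM, and 10 UMIs in 10 cells of library 1, or 0.388 CPM (0.186 to 0.714). The counting interval of the ratio of library 2 over library 1 reached up to 0.567. Its few counts come from a small group of cells described further on.

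A UMI stands for a transcript whatever its length, so these CPM need no scaling by length, though capture can still differ from gene to gene. In library 2 the order by CPM was Tlr2, Tlr7, Tlr12, Tlr3, Tlr13, Tlr4, Tlr1, Tlr6, Tlr9 and Tlr8. Intervals there overlapped between Tlr12 and Tlr3, and between each pair of Tlr3, Tlr13 and Tlr4. In library 1 the order was Tlr2, Tlr7, Tlr13, Tlr4, Tlr3, Tlr12, Tlr1, Tlr6, Tlr9 and Tlr8, with overlapping intervals between Tlr4 and Tlr3 and between Tlr1 and Tlr6. Tlr12 stood in the third place in library 2 and in the sixth in library 1.

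**Figure D1:**
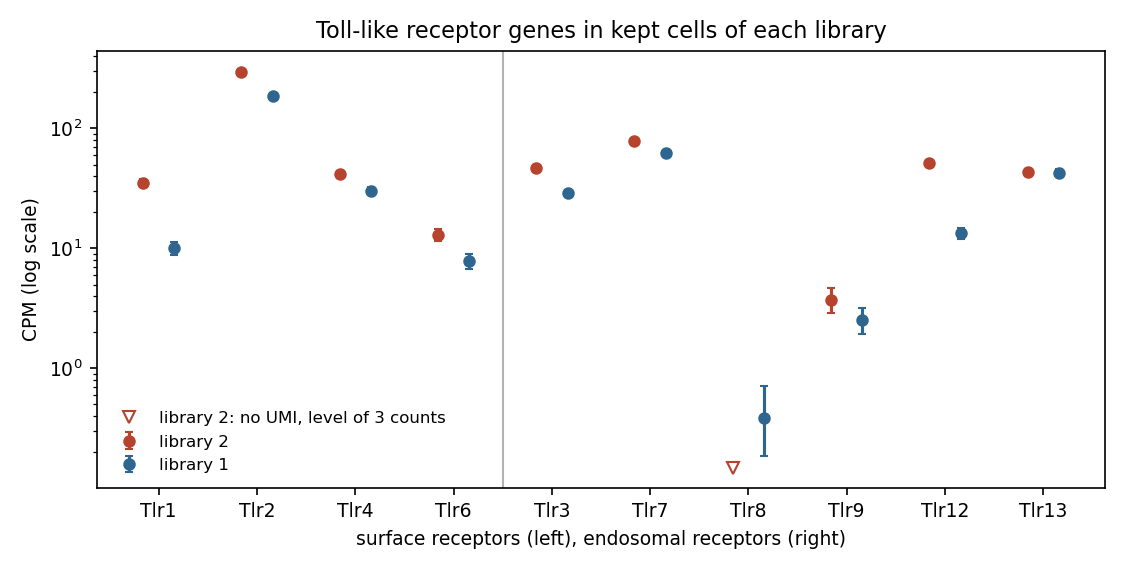
Levels of the 10 Toll-like receptor genes in CPM (log axis) in library 2 (red) and library 1 (blue), with surface receptors left of the grey line, endosomal receptors right of it, and bars for the 95% Poisson interval. Tlr2 is highest in both libraries at 296 and 187 CPM, Tlr1 and Tlr12 show the widest gaps, and the open triangle marks Tlr8 in library 2, which had no UMI, at the level of 3 counts (0.148 CPM).

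Between the libraries, Tlr12 and Tlr1 differed most. The ratio of library 2 over library 1 was 3.88 for Tlr12 (3.43 to 4.40) and 3.54 for Tlr1 (3.06 to 4.09). These 2 were the members at least 2-fold higher in library 2 among the 9 with at least 20 UMIs over both libraries, or 22.2%, and 14.2% of all 13891 genes with that many UMIs were as far up. None of the 9 was 2-fold lower in library 2, whereas 8.37% of all genes were. With 9 genes, a count of 2 is near this background. In cells with at least 5 microglia markers, Tlr12 stood at 54.3 CPM in library 2 and 13.5 CPM in library 1, and Tlr1 at 35.7 CPM in library 2 and 10.2 CPM in library 1. The gap was thus as wide in those cells as in all kept cells.

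The other members differed less. Tlr6 had a ratio of 1.66 (1.38 to 2.01), Tlr3 of 1.61 (1.46 to 1.78) and Tlr2 of 1.58 (1.52 to 1.64). The ratio was 1.47 for Tlr9 (1.04 to 2.08), 1.38 for Tlr4 (1.25 to 1.52) and 1.25 for Tlr7 (1.17 to 1.34). Tlr13 alone among the 9 had an interval that included 1, with a ratio of 1.01 (0.921 to 1.10), and its direction turned under other settings. The interval lay above 1 for 8 of the 9 members, 4 at the surface and 4 in endosomes, against 35.7% of all genes tested, and below 1 for none, against 31.4% of all genes tested. An interval is narrower for a gene with more UMIs, so these shares also reflect abundance. The median log2 ratio was 0.66 over the 9 members and 0.04 over all genes tested.

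**Figure D2:**
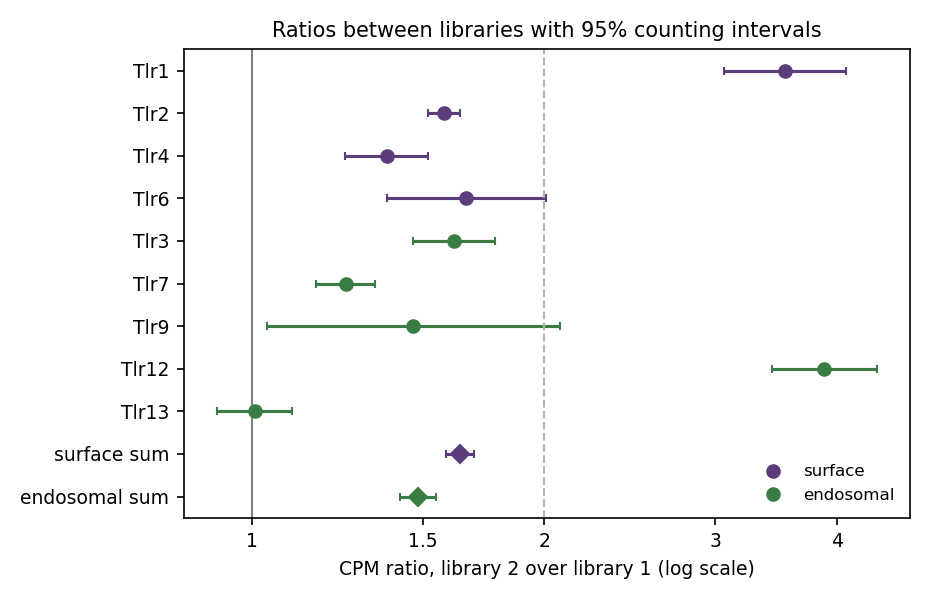
Ratio of CPM in library 2 over library 1 (log axis) for the 9 receptor genes with at least 20 UMIs and for the summed surface and endosomal receptors (diamonds), with 95% counting intervals. The dashed line marks 2-fold, and Tlr12 at 3.88 and Tlr1 at 3.54 lie beyond it, while the interval of Tlr13 spans 1.

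Several marker lists also differed between the libraries. The 21 genes of the interferon list came to 5156 CPM in library 2, against 622 CPM in library 1. The 7 genes of class II antigen presentation came to 15698 CPM in library 2, against 1151 CPM in library 1. Immediate early and stress genes came to 23849 CPM in library 2, against 64656 CPM in library 1. Markers of monocytes, a blood cell type that also uses these receptors, came to 73.2 CPM in library 2, against 10.9 CPM in library 1, with all 6 detected in each, and 2 cells of library 2 and 1 cell of library 1 had 3 or more of them. Neutrophil markers came to 198 CPM in library 2, against 167 CPM in library 1, and no cell had 3 of the 6. Markers of macrophages came to 28.8 CPM in library 2, against 93.8 CPM in library 1. Among other lineages, fibroblast markers came to 222 CPM in library 2, against 21.1 CPM in library 1. Cells with 3 or more of them ran the other way, with 2 in library 2 and 11 in library 1. Sensory neuron markers came to 551 CPM in library 2 (54 such cells), against 104 CPM in library 1 (31 cells). Ensheathing glia markers came to 308 CPM in library 2 (31 cells), against 87.1 CPM in library 1 (12 cells). Astrocyte markers came to 294 CPM in library 2, against 120 CPM in library 1, and erythroid markers to 0.690 CPM in library 2, against 286 CPM in library 1. The median mitochondrial share was 3.74% in library 2 and 1.54% in library 1. The part of these differences, and of the depth gap, in the receptor ratios was not tested.

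Surface receptors together outnumbered endosomal ones in both libraries. The 4 surface genes added up to 385 CPM in library 2 (377 to 394) and 235 CPM in library 1 (229 to 241). The 6 endosomal genes added up to 223 CPM in library 2 (216 to 229) and 150.2 CPM in library 1 (145 to 155). The ratio of library 2 over library 1 was 1.64 (1.58 to 1.69) for the surface sum and 1.48 (1.42 to 1.55) for the endosomal sum, and the intervals did not overlap. Without Tlr7 the endosomal log2 ratio was 0.72, against 0.71 for the surface sum, and without Tlr13 the endosomal value was 0.74. The lower endosomal ratio therefore held with all members counted and not without either of these genes. Surface genes thus held 63.4% of receptor UMIs in library 2 (62.5% to 64.2%) and 61.0% in library 1 (60.1% to 62.0%).

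Tlr2 made up much of the surface share, while the makeup of the endosomal share differed between libraries. Tlr2 held 48.6% of receptor UMIs in each library. Tlr7 held 12.8% in library 2 and 16.2% in library 1, Tlr13 held 7.10% in library 2 and 11.1% in library 1, and Tlr12 held 8.50% in library 2 and 3.45% in library 1. Without Tlr2 the surface share was 28.7% in library 2 and 24.2% in library 1. Without Tlr7 it was 72.7% in library 2 and 72.8% in library 1, and without Tlr13 it was 68.2% in library 2 and 68.7% in library 1. The libraries were thus nearly level when either of these genes was left out, and no order is read from that. Tlr7 and Tlr13 had the lowest ratios between libraries of the 9 members with enough UMIs. The share without Tlr12, which had the highest ratio, was not computed.

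Receptors of both kinds were often detected in the same cell. At least 1 surface and 1 endosomal receptor were detected in 1434 cells of library 2 (74.6%) and 1537 cells of library 1 (45.1%). Surface receptors without an endosomal one were seen in 11.2% of the cells in library 2, against 23.0% in library 1, and the reverse in 7.49% of library 2 and 17.7% of library 1. No receptor was seen in 6.66% of the cells in library 2, against 14.2% in library 1. These shares grow with depth. After thinning to 1000 UMIs, a surface receptor was seen in 29.4% of the cells in library 2, against 18.5% in library 1, and an endosomal one in 18.8% of library 2 and 14.8% of library 1. Thinned shares of Tlr7, at 7.03% in library 2 and 6.93% in library 1, were nearly level, and those of Tlr13, at 3.78% in library 2 and 4.19% in library 1, ran against its CPM, so no order is read from them.

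TLR2 works as a pair with TLR1 or TLR6, and the balance of the partners differed between libraries. There were 8.35 Tlr2 UMIs for each Tlr1 UMI in library 2 and 18.7 in library 1. For Tlr6 the counts were 22.8 in library 2 and 24.0 in library 1. Both Tlr1 and Tlr2 were detected in 455 cells of library 2 and 141 cells of library 1. Among cells with a Tlr1 UMI, Tlr2 was also found in 84.3% of those in library 2 (80.9% to 87.2%) and in 141 of 235 in library 1 (53.4% to 66.3%). The share of all cells with Tlr2 was 76.1% in library 2 and 56.6% in library 1. Cells with Tlr1 were deeper than most, with a median of 10713 UMIs in library 2 and 7710 in library 1.

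Cells with macrophage markers such as Pf4, Mrc1 and Ms4a7 differed in Tlr8, Tlr2 and Tlr3 from microglia-marker cells of library 1 with under 3 macrophage markers. There were 44 cells in library 1 with at least 3 of 8 macrophage markers and 2 in library 2, so only library 1 is described. These cells also carried a median of 6 of the 7 microglia markers. They held 9 of the 10 Tlr8 UMIs, in 20.5% of the cells (9.80% to 35.3%), and 1 Tlr8 UMI was found in the 3217 microglia-marker cells with under 3 macrophage markers. Tlr8 was thus nearly confined to this small group in library 1, and library 2 had only 2 such cells beside its Tlr8 count of 0.

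In the same macrophage-marker cells Tlr2 stood at 389 CPM (330 to 456). It stood at 188 CPM (183 to 194) in the microglia-marker cells with under 3 macrophage markers, a ratio of 2.06 (1.75 to 2.42). Tlr3 stood at 7.62 CPM with 3 UMIs, against 29.2 CPM, a ratio of 0.261 (0.0537 to 0.766). The ratio of the surface sum was 1.80 (1.53 to 2.10) and that of the endosomal sum 1.13 (0.878 to 1.44). Tlr7, the closest relative of Tlr8, had a ratio of 1.20 (0.809 to 1.72). For Tlr1, Tlr4, Tlr6, Tlr9, Tlr12 and Tlr13 the interval of the ratio included 1 as well. These cells were found by their markers, and their median depth was 6126.5 UMIs, against 7392 in the microglia-marker cells. Cells of 1 library are not replicates, so these are descriptions of that library.

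Barcodes with markers of other lineages and few microglia markers carried few receptor transcripts, and most of those were Tlr3. Barcodes with at least 3 markers of a neuronal, glial, epithelial, endothelial or fibroblast list and at most 2 microglia markers numbered 67 in library 2 and 61 in library 1. They had 16 receptor UMIs in library 2 and 22 in library 1, of which Tlr3 made 12 in library 2 (75.0%; 47.6% to 92.7%) and 15 in library 1 (68.2%; 45.1% to 86.1%). In microglia-marker cells Tlr3 made 7.79% of receptor UMIs in library 2 and 7.35% in library 1. Tlr2 had 3 UMIs in these barcodes of library 2 and 1 in library 1, Tlr4 had 1 in library 2 and 5 in library 1, and Tlr7 had 0 in library 2 and 1 in library 1. The other members had none. In the microglia-marker cells of library 2, Tlr2 had 5314 UMIs and Tlr3 had 869, so the order of these genes was the reverse of that in the other barcodes. The limit on microglia markers left out barcodes that mixed both kinds of transcripts, and its part in these low counts was not tested. The part of loose RNA in the other barcodes was not tested.

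By level, Tlr3 in these barcodes was 16.9 CPM in library 2 (8.74 to 29.5) and 30.3 CPM in library 1 (16.95 to 49.95). In the microglia-marker cells it was 48.6 CPM in library 2 and 28.9 CPM in library 1. Barcodes with markers of olfactory ensheathing glia, which wrap the olfactory nerve, had 8 Tlr3 UMIs in library 2, from 6 of 23 cells, and 8 in library 1, from 5 of 12 cells. Barcodes with astrocyte markers had 9 Tlr3 UMIs in library 2, from 8 of 19 cells, and 5 in library 1, from 4 of 8 cells. The marker lists overlap, so a barcode may count in both. Sensory neuron barcodes had 7 Tlr3 UMIs of 8 receptor UMIs in library 2, from 6 of 42 cells, and 2 of 5 in library 1, from 2 of 19 cells. Barcodes with epithelial markers had 7 Tlr3 and 4 Tlr4 UMIs in library 1 and 1 of each in library 2. In library 1, 14 barcodes with blood endothelium markers had 1 receptor UMI, of Tlr4, and 7 with fibroblast markers had none at a median depth of 527 UMIs.

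**Figure D3:**
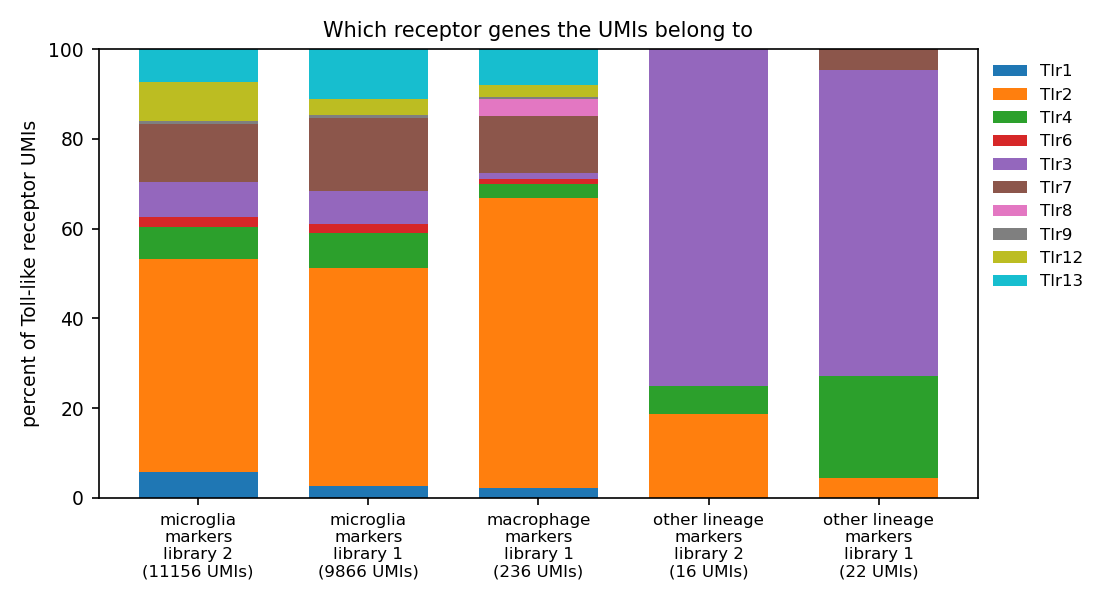
Share of Toll-like receptor UMIs held by each gene (percent, stacked bars) in microglia-marker cells of library 2 and library 1, macrophage-marker cells of library 1, and barcodes with markers of other lineages of library 2 and library 1, with the number of UMIs under each bar. Tlr2 takes the largest part of the first 3 bars, Tlr8 is visible in the macrophage bar, and Tlr3 takes 75.0% and 68.2% of the last 2 bars, which rest on 16 and 22 UMIs.

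To see how receptors vary among cells, all kept cells were clustered on genes other than the receptors, their pathway and the response lists. Of the 15 clusters, most belonged almost wholly to 1 library, so a cluster may stand for its library and not for a cell type. In library 2 those described here are cluster 13 (993 cells, led by Apoc4, Apoc1 and C4b), cluster 14 (631 cells, led by Cxcl9, Acod1 and Il12b) and cluster 15 (91 cells, led by genes of dividing cells such as Pimreg and Hmmr). In library 1 they are cluster 2 (999 cells, led by Fam71a and the heat shock gene Hspa1b) and cluster 5 (992 cells, led by Ankrd33b, Mir155hg and Tnip3).

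Over the clusters whose cells averaged at least 5 microglia markers, the highest surface sum was 1.73 times the lowest in library 2 and 2.40 times in library 1, and for the endosomal sum the spans were 1.28 in library 2 and 1.60 in library 1. With clusters 7, 9 and 10 included, which averaged fewer than 5 such markers, the surface spans were 3.12 in library 2 and 4.17 in library 1, and the endosomal spans 2.01 in library 2 and 3.61 in library 1. Within library 2, Tlr2 stood at 434 CPM in cluster 14 (420 to 449), 332 CPM in cluster 15 and 209 CPM in cluster 13. The surface sum was 530 CPM in cluster 14 (514 to 546) and 307 CPM in cluster 13 (296 to 318). The endosomal sum was 228 CPM in cluster 14 (218 to 239) and 242 CPM in cluster 13 (232 to 252), with overlapping intervals. Surface genes therefore made 69.9% of receptor UMIs in cluster 14 (68.7% to 71.0%) and 55.9% in cluster 13 (54.6% to 57.3%).

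The same contrast appeared inside library 1. Tlr2 stood at 294 CPM in cluster 5 (282 to 306) and 99.0 CPM in cluster 2 (91.7 to 107). The surface sum was 341 CPM in cluster 5 (329 to 354) and 142 CPM in cluster 2. The endosomal sum was 156 CPM in cluster 5 and 151 CPM in cluster 2 (142 to 160). Surface genes made 68.6% of receptor UMIs in cluster 5 (67.1% to 70.0%) and 48.5% in cluster 2 (46.3% to 50.7%), the lowest share among the 8 clusters of that library with at least 50 cells.

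Other members varied less among the large clusters. Tlr7 stood at 91.4 CPM in cluster 13 (85.4 to 97.6) and 72.0 CPM in cluster 14 (66.2 to 78.2), the opposite order to Tlr2. Tlr13 stood at 54.0 CPM in cluster 5 (49.1 to 59.2) and 40.1 CPM in cluster 2. Tlr4 stood at 46.3 CPM in cluster 13 and 41.1 CPM in cluster 14 within overlapping intervals, and at 29.1 CPM in cluster 5 and 28.3 CPM in cluster 2.

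Over clusters whose cells averaged at least 5 microglia markers, Tlr12 ranged from 41.1 to 55.3 CPM in the 3 clusters of library 2 and from 7.01 to 16.1 CPM in the 6 clusters of library 1. Tlr1 ranged from 21.3 to 40.4 CPM in library 2 and from 7.82 to 16.1 CPM in library 1. These ranges are of point values. The Tlr12 intervals of the 2 sets lay apart. In contrast, the Tlr1 interval of cluster 15 in library 2 (14.1 to 31.0) overlapped several of library 1. These were cluster 1 (9.54 to 25.4), cluster 3 (8.92 to 16.1) and cluster 6 (5.77 to 24.0). Tlr12 stood at 55.3 CPM in cluster 13 (50.7 to 60.2) and 54.9 CPM in cluster 14 (49.8 to 60.3). Tlr1 stood at 36.7 CPM in cluster 13 (33.0 to 40.8) and 40.4 CPM in cluster 14 (36.1 to 45.1). Cluster 9 (led by Ibsp and Col1a1) was the one with at least 50 cells in each library. Tlr12 stood there at 24.9 CPM with 12 UMIs in library 2 (12.9 to 43.5) and 2.94 CPM with 1 UMI in library 1 (0.0744 to 16.4), with overlapping intervals. Tlr1 stood at 18.7 CPM with 9 UMIs in library 2 (8.53 to 35.4) and 17.6 CPM with 6 UMIs in library 1 (6.47 to 38.4). These counts are too small to show whether either gap held in this cluster.

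In library 2 the highest point value of Tlr3 was in cluster 10, whose leading genes include the ensheathing glia markers Npy, Frzb and Apod. It stood there at 69.1 CPM in the 58 cells of library 2 (48.1 to 96.1), against 24.9 to 51.3 CPM in the other clusters of that library, and its interval overlapped those of clusters 13, 14 and 15. Those cells also held 172 CPM of Tlr2, so the cluster mixes barcodes with glial and with microglia transcripts. Cluster 11 (44 cells of library 1, led by Spic, Pf4 and Clec4n) held all 10 Tlr8 UMIs, or 21.0 CPM (10.1 to 38.7), and 37 of the 44 macrophage-marker cells.

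**Figure D4:**
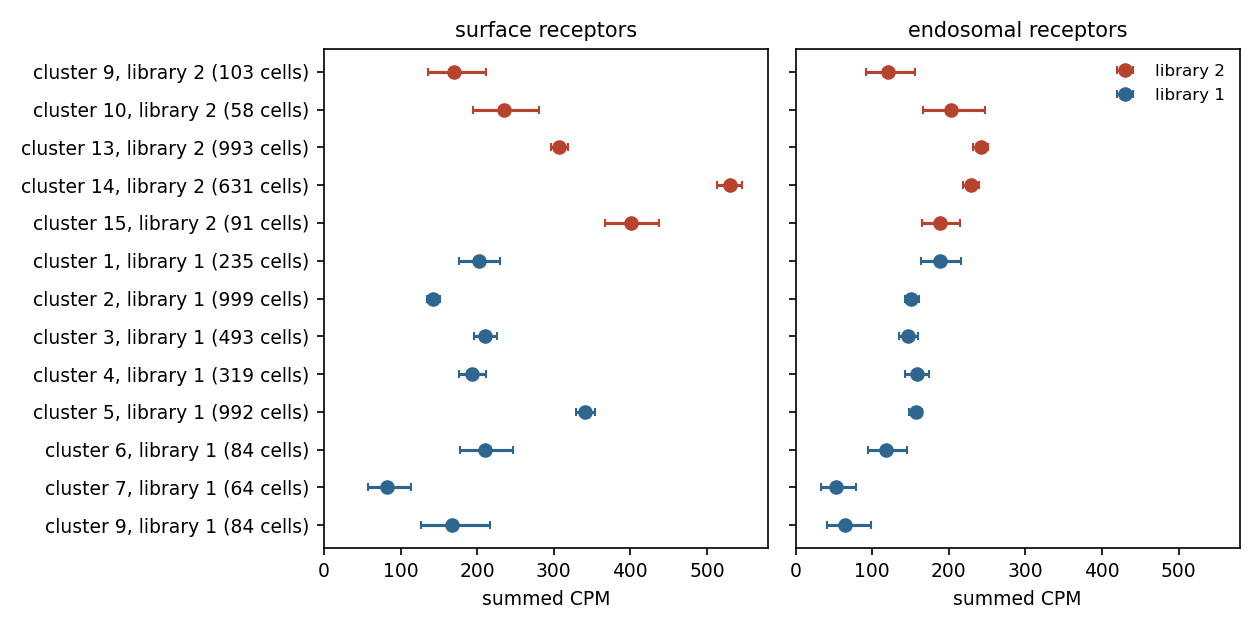
Summed CPM of the surface receptors (left) and endosomal receptors (right) in each cluster with at least 50 cells of a library, library 2 in red above and library 1 in blue below, with 95% Poisson intervals. The surface sum reaches 530 CPM in cluster 14 and 341 CPM in cluster 5, while the endosomal sum stays at or below 242 CPM in every cluster shown.

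Cells with microglia markers were then ordered by the share of their UMIs in 3 response lists and divided into low, middle and high groups of equal size, 545 cells each in library 2 and 1083 in library 1. Tlr3 increased with the interferon list within library 2. It stood at 34.1 CPM in the low group (29.4 to 39.4), 45.8 CPM in the middle one (40.6 to 51.4) and 64.2 CPM in the high one (58.0 to 70.9). The ratio of high over low was 1.88 (1.58 to 2.25), and 1.63 (1.12 to 2.38) after thinning each cell to 2000 UMIs. In library 1 Tlr3 stood at 28.7, 29.4 and 28.6 CPM, with a ratio of 0.998 (0.831 to 1.20). The interferon list itself spanned medians of 0.328% to 0.685% of UMIs in the groups of library 2, and 0.0130% to 0.0764% in those of library 1, so the high group of library 1 lay below the low group of library 2. At median depths of 7169 to 7572 UMIs, the shares of library 1 are a few UMIs of the list per cell. Its groups thus rest on small counts, and its flat values cannot show that Tlr3 did not follow the list there. The difference between the ratios of the libraries was not tested. The groups are ranges of a score and not cell types: 150 cells of the low group, 312 of the middle one and 132 of the high one in library 2 lay within 10% of a dividing value. Median depths were 9436, 10404 and 10180 UMIs from the low to the high group of library 2. Among microglia-marker cells with under 3 markers of any other type, the ratio in library 2 was 1.91 (1.59 to 2.30).

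For each of the other 8 members with UMIs in library 2, the interval of this ratio included 1 over all microglia-marker cells. In the cells with under 3 markers of any other type, Tlr4 was an exception, at 1.21 (1.01 to 1.45). The ratio of high over low was 1.01 for Tlr2 (0.940 to 1.08), 0.918 for Tlr7 (0.805 to 1.05) and 1.17 for Tlr4 (0.982 to 1.40). For Tlr12 it was 1.04 (0.886 to 1.21) and for Tlr1 0.882 (0.723 to 1.08), although both were the members that differed most between the libraries. The surface sum had a ratio of 1.005 (0.948 to 1.066) and the endosomal sum, which includes Tlr3, of 1.09 (1.01 to 1.18).

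Tlr2 increased with class II genes within library 1. It stood at 136 CPM in the low group (128 to 144), 182 CPM in the middle one (173 to 191) and 250 CPM in the high one (240 to 261), a ratio of 1.84 (1.71 to 1.98), and of 1.62 (1.41 to 1.88) after thinning, where many cells tied at 0 or 1 class II UMI. In library 2, where class II genes took far more of the UMIs, Tlr2 stood at 269, 311 and 309 CPM, a ratio of 1.15 (1.07 to 1.23). Surface genes made 55.5%, 59.9% and 65.9% of receptor UMIs from the low to the high group of library 1. The other surface genes did not share the increase of Tlr2 beyond counting error. Tlr4 was lower in the high group than in the low one, with a ratio of 0.812 and an interval below 1. After thinning the Tlr4 ratio was 0.659 (0.455 to 0.947). For Tlr1, at 1.01, and Tlr6, at 1.38, the interval of the ratio without thinning included 1. The endosomal sum of library 1 did not follow the class II genes, with a ratio of 1.03 (0.956 to 1.12), though Tlr13 within it had a ratio of 1.30 (1.12 to 1.51).

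Tlr7 decreased with class II genes within library 2. It stood at 91.1 CPM in the low group (83.5 to 99.3), 87.9 CPM in the middle one and 65.5 CPM in the high one (59.1 to 72.3), a ratio of 0.718 (0.629 to 0.820), and 0.505 (0.365 to 0.693) after thinning. In library 1 the ratio was 0.890 (0.787 to 1.01), and 0.870 (0.767 to 0.986) in microglia-marker cells with under 3 markers of any other type. With the immediate early and stress list, the surface sum had a ratio of 1.09 (1.03 to 1.16) in library 2 and 0.890 (0.836 to 0.948) in library 1, and the endosomal sum 1.08 (0.996 to 1.16) in library 2 and 0.915 (0.845 to 0.991) in library 1. The direction of the endosomal sum in library 2 turned after thinning.

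**Figure D5:**
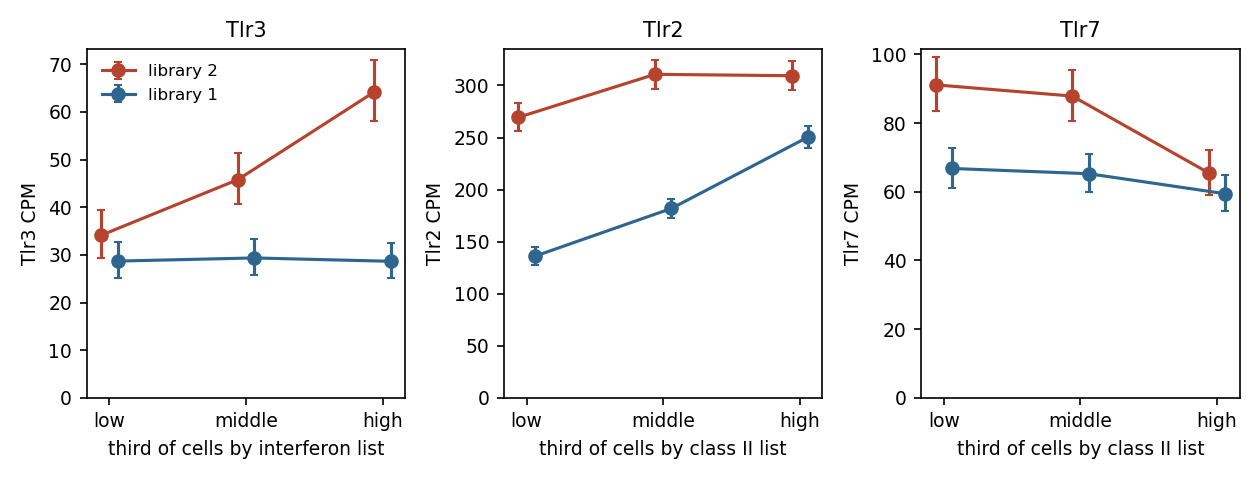
Level of Tlr3 by groups of the interferon list, and of Tlr2 and Tlr7 by groups of the class II list, in CPM with 95% Poisson intervals, for microglia-marker cells of library 2 (red) and library 1 (blue) divided into groups of equal size. Tlr3 reaches 64.2 CPM in the high group of library 2 and stays near 29 CPM in library 1, Tlr2 climbs to 250 CPM in library 1, and Tlr7 drops to 65.5 CPM in library 2.

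The receptors depend on helpers and relays. Genes of these, with the other receptors Tlr5 and Tlr11, made 50 pathway genes that were counted in the same way. Of the 49 with at least 20 UMIs, 8 (16.3%) were at least 2-fold higher in library 2, near the 14.2% of all genes, and 5 (10.2%) were at least 2-fold lower, near the 8.37% of all genes. Their median log2 ratio was -0.02. Both counts lay near the background. All 5 chaperone and trafficking genes stayed within 2-fold. Unc93b1, the chaperone that carries endosomal receptors to their compartment, stood at 885 CPM in library 2 and 861 CPM in library 1, and the folding chaperone gene Hsp90b1 at 714 CPM in library 2 and 539 CPM in library 1.

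Among 6 co-receptors and relatives with enough UMIs, Cd14 and Cd36 moved in opposite directions. Cd14, which hands lipopolysaccharide to TLR4, stood at 295 CPM in library 2 and 832 CPM in library 1, a ratio of 0.355. Cd36, a scavenger receptor that works with TLR2 and TLR6, stood at 59.4 CPM in library 2 and 4.04 CPM in library 1, a ratio of 14.7 (12.03 to 18.1). Cd180, a receptor-like relative of Tlr4, had a ratio of 2.17, at 333 CPM in library 2 and 153 CPM in library 1, and its partner Ly86 stood at 2631 CPM in library 2 and 1621 CPM in library 1. Of 4 proteases that cut endosomal receptors, Ctss was higher, at 9489 CPM in library 2 and 4699 CPM in library 1, while Lgmn stood at 3447 CPM in library 2 and 3358 CPM in library 1.

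Adaptors and kinases mostly stayed within 2-fold. Intervals of several still lay off 1 on either side, such as Traf3 at 1.48 (1.27 to 1.72) and Traf6 at 0.653 (0.576 to 0.740). Myd88, the shared adaptor, stood at 55.8 CPM in library 2 and 67.1 CPM in library 1, and Pik3ap1 at 24.9 CPM in library 2 and 18.4 CPM in library 1. Of 6 adaptors, Sarm1, known as a brake on TRIF, was past 2-fold with a ratio of 2.19 (0.992 to 5.10), on 19 UMIs in library 2 and 11 in library 1. Of 15 kinases and ubiquitin ligases, Ikbke was past 2-fold, at 19.5 CPM in library 2 and 3.22 CPM in library 1, a ratio of 6.06 (4.77 to 7.78). By CPM added over both libraries, the most abundant of them were Peli1, at 172 CPM in library 2 and 161 CPM in library 1, and Tab2, at 76.3 CPM in library 2 and 90.4 CPM in library 1.

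Inhibitors and transcription factors held changes in both directions. Tnfaip3, the ubiquitin-editing brake on NF-kappaB, stood at 180 CPM in library 2 and 582 CPM in library 1, a ratio of 0.310. Cyld, another such brake, stood at 55.7 CPM in library 2 and 41.8 CPM in library 1, within 2-fold. Il1rl1 was lower too, at 0.345 CPM in library 2 and 2.79 CPM in library 1, and Sigirr was higher, at 2.96 CPM in library 2 and 0.893 CPM in library 1. Irf7, which drives interferon genes downstream of TLR7 and TLR9, stood at 176 CPM in library 2 and 10.1 CPM in library 1, a ratio of 17.5 (15.5 to 19.97). Rela, a subunit of NF-kappaB, stood at 49.99 CPM in library 2 and 102 CPM in library 1, a ratio of 0.491, and the more abundant Irf5 and Nfkb1 were within 2-fold, Irf5 at 162 CPM in library 2 and 241 CPM in library 1 and Nfkb1 at 147 CPM in library 2 and 217 CPM in library 1.

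The 2 other receptors of the family were rare. Tlr11, which pairs with TLR12 in mice, had 24 UMIs in library 2 and 3 in library 1, a ratio of 10.2 (3.09 to 52.7). Tlr5, the flagellin receptor, had 12 UMIs in library 2 and 87 in library 1, a ratio of 0.175. Within clusters, Cd14 stood at 1388 CPM in cluster 5 and 451 CPM in cluster 2, and Tnfaip3 at 929 CPM in cluster 5 and 316 CPM in cluster 2, both higher in cluster 5, as Tlr2 was. In library 2, Cd36 stood at 133 CPM in cluster 15, 82.7 CPM in cluster 14 and 32.4 CPM in cluster 13, and Ikbke at 34.0 CPM in cluster 14 and 9.32 CPM in cluster 13. By Spearman correlation over the 12 clusters of at least 50 cells, the genes most like Tlr2 were Tnf (0.94), Tlnrd1 (0.94) and H2-Q4 (0.92), and those most like Tlr7 were Limk1 (0.97), Proser1 (0.96) and Mbtps2 (0.95). These clusters share libraries and differ in depth, and no p is given.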

How the data were processed

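The authors deposited 1 matrix of unnormalized UMI counts, which Cell Ranger 3.1.0 wrote (format 2), per the file headers. bcl2fastq and UMI-tools are named as well, per the submitters' processing notes. Not given in the sources used here are the genome build, the use of strand and whether depth was equalised between the libraries.

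Computed here with Python 3.11.15, NumPy 2.4.6, SciPy 1.17.1, pandas 2.3.3, Scanpy 1.11.5, igraph 0.11.9 and matplotlib 3.10.9. UMIs were summed over kept cells and scaled to their total as CPM, with exact Poisson intervals. Shares have exact binomial (Clopper-Pearson) intervals and ratios exact conditional binomial intervals, all at 95%. A gene was called past 2-fold with at least 20 UMIs over both libraries. No test was possible. The calculation was checked on simulated data. Clustering used 2000 variable genes, 30 principal components, 15 neighbours and the Leiden method at resolution 1. No doublet caller was used, and the study's sort left out doublets, per the labels. An alternative left out the 2% of cells with most UMIs. Shared stretches and exon overlaps were read from GENCODE M21, and promoters from RefSeq tables, which matched 8 of 10 members.

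The members and lists were chosen with earlier results of these data known. Named genes are all members, pathway genes past 2-fold, the 2 of each pathway list with the highest CPM added over both libraries, the 3 genes most like Tlr2 and Tlr7, and leading genes of clusters. Other named values of cell types and clusters were chosen after they were seen.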

Additional observations from a re-analysis of the deposited data

How the results depend on the processing

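Ratios of the 9 members with at least 20 UMIs kept their direction under the alternatives of cell filter, totals, weighting and cell choice, except Tlr13, whose log2 ratio ranged from -0.05 to 0.13. That of Tlr12 ranged from 1.85 to 2.08 and that of Tlr1 from 1.78 to 1.95. With mitochondrial, ribosomal protein and haemoglobin genes left out of the totals, the log2 ratio was 0.84 for the surface sum (0.71 before) and 0.69 for the endosomal sum (0.57 before). With each cell weighted equally, the surface share was 62.4% in library 2 and 59.6% in library 1. Without Tlr7 the endosomal sum had a log2 ratio of 0.72 and the surface share was 72.7% in library 2 and 72.8% in library 1. Without Tlr13, chosen after seeing the data, the values were 0.74, 68.2% in library 2 and 68.7% in library 1. Without Tlr2 the surface sum had a log2 ratio of 0.91 and the share was 28.7% in library 2 and 24.2% in library 1. At a 1.5-fold threshold 5 members were higher and 0 lower, and 10 pathway genes were higher and 9 lower. With no UMI minimum 1 member, Tlr8, was lower. Shares of all genes were not counted at these settings, so the counts have no background and no excess is read from them. At resolution 0.5 the highest surface sum among clusters was 407 CPM in library 2 and 314 CPM in library 1.

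For high over low groups in cells thinned to 2000 UMIs, the stress list in library 2 gave a log2 ratio of 0.30 for the surface sum (0.13 before) and -0.083 for the endosomal sum (0.11 before). The surface sum gave 0.051 for the interferon list (0.20 before) and 0.47 for the class II list (0.68 before) in library 1, and the endosomal sum 0.18 for the class II list (0.05 before). In library 1 the thinned groups had medians of 0, 1 and 2 UMIs per cell for the interferon list and 0, 1 and 3 for the class II list. The interferon groups were thus divided largely among ties, and nothing is read from them. Causes of the other moves were not tested. Alternatives restricted to microglia-marker cells with under 3 markers of any other type, and shares without thinning, were chosen after seeing the data. No paired analysis was possible because each condition is 1 pooled sample. Counts of Tlr8 and Tlr9 are small, so their intervals are wide, and cells of 1 library cannot stand for mice.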
